A study of Mus musculus with 8 samples.

Results

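Of the 70142 clusters of Argonaute-bound reads deposited for mouse forebrain, 963 held 100 or more reads, which is 1.37% of the table, and these deep clusters are described here. They were chosen by their read count alone, in any kind of region, so their depth is a description and not a finding. FLAG-Ago HITS-CLIP crosslinks RNA to a tagged Argonaute protein in tissue by ultraviolet light, pulls the protein down and sequences the attached RNA. The study made 5 libraries numbered 1, 2a, 2b, 3a and 3b, from mice that carry Camk2a-cre together with Rosa-Stopfl/fl-Flag-Ago2. In them Cre recombinase driven by the Camk2a promoter turns on Flag-Ago2, by this design in excitatory forebrain neurons. It made 3 control libraries from Rosa-Stopfl/fl-Flag-Ago2 mice, which carry the same allele but no Cre. All mice were 8 to 14 weeks old, came from 3 experiments, and had their tissue irradiated at 400 mJ/cm2, with the M2 FLAG antibody for the pull-down and 15 PCR cycles for the library. The table gives 1 pooled read count per cluster, names no library and holds no separate control value, so no value below has a replicate spread or a control background.

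Argonaute carries a small guide RNA, the microRNA (miRNA), and finds target RNAs mainly through the miRNA's seed, the bases near its 5′ end, which pair with a complementary site in the target. In animals such sites lie mostly in 3′ untranslated regions (3′ UTRs) and also in coding sequence (CDS), and binding usually lowers the target's translation or stability. miR-128, miR-124, miR-9, miR-29 and let-7 are well known in the brain, and miR-7 is known for its many sites in the circular RNA Cdr1as.

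The miRNAs whose matches set deep clusters most apart, or that mark single deep sites, are shown as RefSeq gives their mature sequences (GRCm38.p6), 5′ to 3′, with bases 2 to 8, the seed, in capitals. The 6-base match of miR-128-3p, ACTGTG, and that of miR-27b-3p, CTGTGA, overlap, so 1 stretch can hold both.
mmu-miR-128-3p: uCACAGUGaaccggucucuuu
mmu-miR-27b-3p: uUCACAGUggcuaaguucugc
mmu-let-7a-5p: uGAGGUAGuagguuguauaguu
mmu-miR-29a-3p: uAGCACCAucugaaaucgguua
mmu-miR-30a-5p: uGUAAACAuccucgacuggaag
mmu-miR-7a-5p: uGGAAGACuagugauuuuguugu

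Sites from the middle of deep clusters follow, as GENCODE M21 transcripts give them on mm10, on the strand of the gene and 5′ to 3′. Capitals mark the 6 bases that pair with miRNA bases 2 to 7. Each cluster is among the deepest with that match, but not all of the deepest are shown. Left out were deeper clusters whose site had neither base 8 paired nor an A after it. Examples are Strbp for miR-29 (2581 reads), Rtn4 for miR-27 (591 reads), and Ptbp2 (780 reads) and Rubcn (370 reads) for miR-128. The printed sites therefore do not show how common longer pairing is. The first 4 are miR-128 sites in the 3′ UTR of Fbxo32 (3041 reads), Casc3 (366 reads) and Ccdc50 (358 reads) and in the CDS of Mettl3 (1146 reads).
Fbxo32, chr15:58180253-58180282, minus strand: agagacatgaacACTGTGgaagaaaggaga
Casc3, chr11:98833678-98833707, plus strand: gtctgtcggtccACTGTGtttagttgcaaa
Ccdc50, chr16:27451784-27451813, plus strand: ctgtgaggagacACTGTGtggatgccttaa
Mettl3, chr14:52297692-52297721, minus strand: agagggtttgggACTGTGaaatctgtgaaa
The next 3 are miR-27 sites in CDS. In Pcdh17 (332 reads) and Dock11 (308 reads) bases 2 to 8 pair and an A follows, and the same stretch holds the cluster's 1 miR-128 match. In Mettl3 base 8 is not paired at the marked match. Its other miR-27 match overlaps the miR-128 match printed above it, and there bases 2 to 8 pair and an A follows.
Mettl3, chr14:52297682-52297711, minus strand: ggactgtgaaatCTGTGAaagaaggaaaga
Pcdh17, chr14:84533031-84533060, plus strand: agacttacgaaaCTGTGAatcccactggga
Dock11, chrX:36067691-36067720, plus strand: gatacctataaaCTGTGAacagcaggtgaa
A let-7 site in the 3′ UTR of Nap1l1 (191 reads), a miR-9 site in that of Ankrd63 (456 reads), a miR-29 site in that of Hmgcs1 (534 reads) and a miR-26 site in that of Tnrc6a (775 reads) show other families.
Nap1l1, chr10:111497159-111497188, plus strand: tgttgattcaacTACCTCaactctgttaag
Ankrd63, chr2:118700936-118700965, minus strand: gctagatcaagaCCAAAGacccctgcctgg
Hmgcs1, chr13:119707571-119707600, plus strand: tggatgatttttGGTGCTgaacaatgacat
Tnrc6a, chr7:123193084-123193113, plus strand: aaacatatcagtttgaatACTTGAatcatg

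Read depth among the deep clusters was uneven. Their 282421 reads were 15.4% of the 1834586 reads in the table. The median deep cluster had 139 reads, with quartiles of 113 and 205.5, and 712 of them (73.9%) had fewer than 200. The 28 clusters of 1000 or more reads held 39.5% of the deep reads, and the 2 deepest alone held 10.7%. The 251 clusters of 90 to 99 reads lay in 3′ UTR in 29.1% and in CDS in 32.7%, and the 188 of 100 to 109 reads in 27.1% and 36.2%. Reads were amplified by PCR and no molecular identifiers are named, so the 95% intervals below cover counting error only.

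The deepest cluster, 17721 reads at chr17:24594948-24595106 on the plus strand, lay in the CDS of Pkd1, which encodes polycystin 1, and over the annotated miRNA gene Gm24589. The second, 12432 reads at chrX:61183216-61186181 on the plus strand, lay opposite Cdr1, in the noncoding RNA C230004F18Rik from which Cdr1as is made. It carried 12 circRNA identifiers and 139 matches to the miR-7 seed over 2966 bases, or 46.9 per kb. A stretch of 150 bases from it held 7 of those matches, shown in capitals.
C230004F18Rik, chrX:61183239-61183388, plus strand: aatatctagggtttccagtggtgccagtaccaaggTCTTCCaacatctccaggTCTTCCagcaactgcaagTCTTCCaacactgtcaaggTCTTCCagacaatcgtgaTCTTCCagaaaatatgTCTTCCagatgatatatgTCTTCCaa
The cluster with the next most miR-7 matches in the table held 20 and had 10 reads. The noncoding RNA 1700020I14Rik, known as Cyrano, whose role in removing miR-7 is well described, had 3 deep clusters, of 218, 211 and 142 reads. The 218-read cluster held 2 miR-7 matches and the other 2 held none.

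The clusters ranked 3 to 7 had nearly equal depth and nearly the same sequence content. They held 5935, 5882, 5786, 5730 and 5624 reads, at chr11:121105597-121105753 (minus), chr2:63750467-63750618 (plus), chr1:97026235-97026485 (plus), chr6:117925313-117925560 (plus) and chr4:48343658-48343821 (minus). The one on chromosome 6 is the 3′ UTR of Hnrnpf, which encodes an RNA-binding splicing factor. Of the rest, 3 had no annotation and 1 was antisense to Invs. Each of the 5 held 1 match to miR-128, 1 to miR-27 and 2 to miR-101. The clusters on chromosomes 11 and 4 lay 394 bases from the processed pseudogenes Gm11793 and Gm12435, and that on chromosome 1 lay 307 bases from Gm6430. In GENCODE, 58.3% of the 25-base runs of Gm11793, 89.9% of those of Gm12435 and 84.0% of those of Gm6430 also occur in Hnrnpf transcripts. Together the 5 clusters hold 28957 reads, 10.3% of all reads in deep clusters. How reads that fit several places were assigned is not given in the sources used here, so reads from 1 locus placed at several and reads from several loci cannot be told apart. The same holds for any result that counts these clusters.

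**Figure D1:**
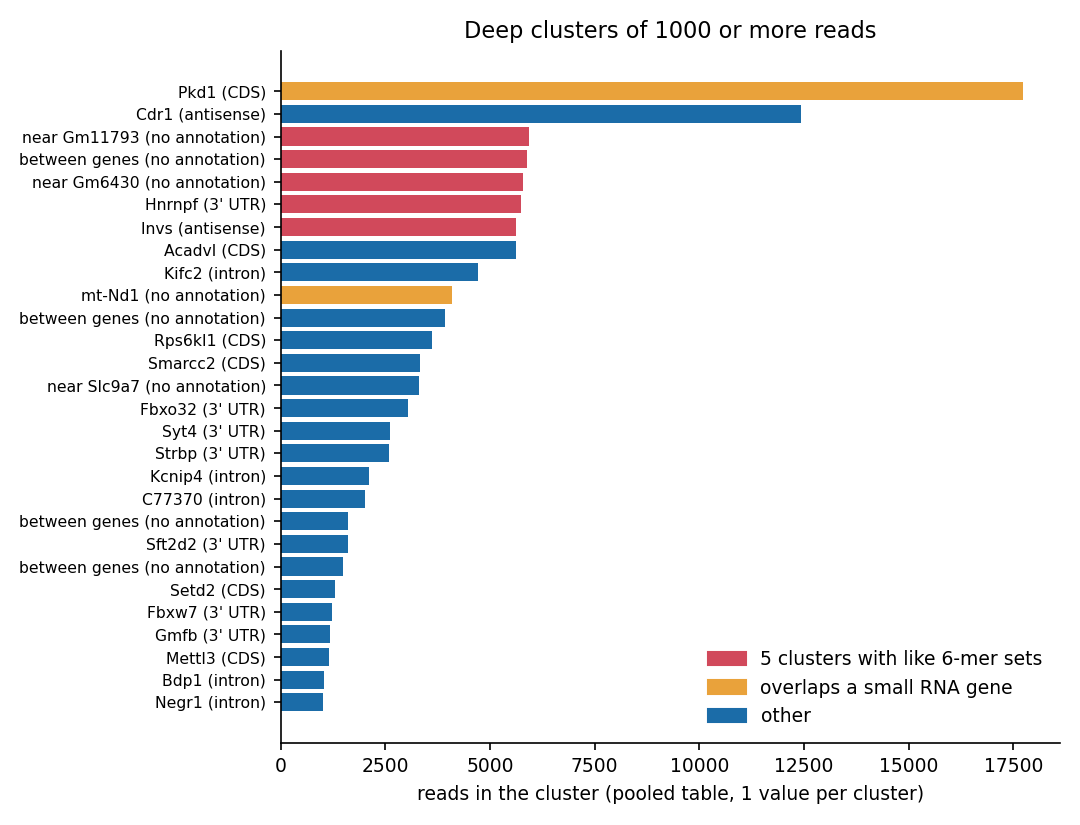
Reads in each of the 28 deep clusters of 1000 or more reads (horizontal bars, linear axis from 0), named by gene and region. Red bars are the 5 clusters with like 6-base match sets, between 5624 and 5935 reads, and orange bars are clusters over annotated small RNA genes.

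Such look-alikes were sought across the table, a search added after these values were seen. A pair counted when the clusters lay over 1000 bases apart and shared at least 10 of the 885 distinct 6-base matches in the table and at least 50% of all those found in either. Among deep clusters, 33 (3.43%) fell into 13 groups of such look-alikes, with 35396 reads (12.5% of the deep reads), and 24 of the 33 had no annotation or were antisense. Among the other 12 groups, one joined Rpl27a, a ribosomal protein gene (257 reads), with Gm7536 (620 reads), Gm8213 (106 reads) and Gm14044 (100 reads), and another Mapk6 (272 reads) with Gm49037 (277 reads). Pom121, a nuclear pore gene (413 reads), paired with a cluster of 386 reads on chromosome 2. Mitochondrial mt-Co1 (116 reads) paired with the pseudogenes Gm28661 (123 reads) and Gm13340 (128 reads). A look-alike of any depth was found for 4.57% of deep clusters (3.42 to 6.08) and for 4.37% of clusters of 10 to 99 reads (4.22 to 4.52), and these intervals overlap. Among the 28 clusters of 1000 or more reads the share was 17.9% (7.88 to 35.6), all 5 of them the Hnrnpf group.

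The remaining clusters among the 10 deepest were single sites. Acadvl, which encodes an enzyme of fatty acid oxidation, had 5623 reads in CDS at chr11:70011567-70011713 (minus), with no match to any of 12 brain seeds tabulated for every deep cluster. Kifc2, which encodes a kinesin motor, had 4720 reads in an intron, on only 9 bases at chr15:76661902-76661910. The mitochondrial gene mt-Nd1 had 4092 reads at positions 3442 to 4085, over 2 tRNA genes. Other deep CDS clusters lay in Rps6kl1 (3608 reads), Smarcc2, which encodes a chromatin remodelling subunit (3317 reads), and Setd2, a histone methyltransferase (1297 reads). In 3′ UTRs, Fbxo32, a ubiquitin ligase subunit known from muscle atrophy (3041 reads), Syt4, a synaptotagmin (2619 reads), Strbp, an RNA-binding protein gene (2581 reads), and Sft2d2 (1620 reads) followed Hnrnpf. Fbxo32 and Syt4 held 1 miR-128 match each, Strbp 1 miR-29 match and Sft2d2 2 miR-124 matches. In introns, Kcnip4, a potassium channel-interacting protein gene (2112 reads), C77370 (2012 reads), Bdp1 (1041 reads) and Negr1 (1001 reads) followed Kifc2. Of these 4, all but the Kcnip4 cluster held 1 miR-128 match. The deepest antisense clusters after Cdr1 and Invs lay opposite Mrc2 (948 reads), Pik3c2g (830 reads) and Naaladl2 (620 reads). The deepest 5′ UTR cluster, 723 reads, lay over Mir127, a miRNA gene, and others were in Srgap3 (180 reads), Mgat4a (166 reads) and Sipa1l1 (155 reads). A cluster of 3924 reads on 84 bases, at chr5:88026624-88026707, had its nearest gene on the same strand, Gm11116, 83860 bases away.

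Deep clusters lay in exons more often than the rest. A cluster with several annotations was counted once, with 3′ UTR taken first, then CDS, 5′ UTR, intron and antisense. Of the deep clusters 250 (25.96%, 95% Wilson interval 23.3 to 28.8) were in 3′ UTR, against 13.1% (12.8 to 13.3) of the 69179 clusters of 10 to 99 reads. CDS held 298 (30.9%, 28.1 to 33.9) against 18.3%, and introns 261 (27.1%, 24.4 to 30.0) against 46.9%. Counting every cluster that touches an intron, exonic ones included, the shares were 53.6% and 61.6%. No annotation was given for 127 (13.2%, 11.2 to 15.5) against 17.3%, and 15 (1.56%) against 3.15% were antisense. The 5′ UTR share, 12 clusters or 1.25% (0.714 to 2.17), lay beside 1.27% in the rest. Read the other way, 2.69% of all 3′ UTR clusters and 2.30% of CDS clusters were deep, against 0.798% of intron clusters. The change in shares was in place below the threshold: clusters of 50 to 99 reads were in 3′ UTR in 23.7%, in CDS in 31.1% and in introns in 32.7%. Within the deep clusters the 3′ UTR share was 26.1% under 200 reads, 25.4% from 200, 26.5% from 500 and 7 of 28 clusters from 1000 reads. The table has no measure of RNA abundance, and its part in these shares was not tested. Nor is a comparison with the rest at equal cluster width given.

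**Figure D2:**
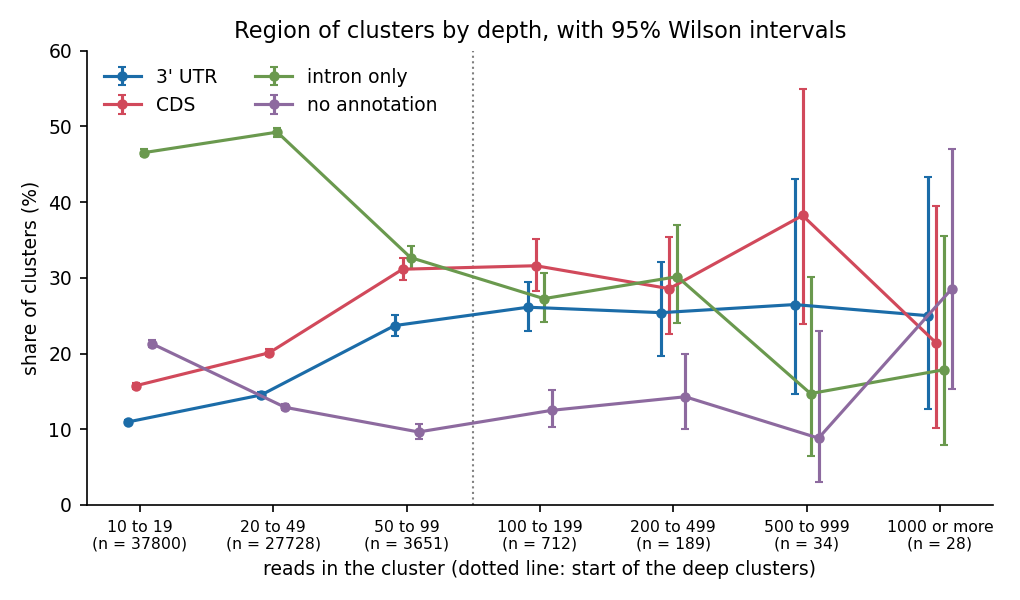
Share of clusters (vertical axis, percent) in 3′ UTR, CDS, intron and no annotation, by reads in the cluster, with 95% Wilson intervals and the number of clusters under each class. The intron share falls from 49.2% at 20 to 49 reads to 27.2% in the shallowest class of deep clusters, while the 3′ UTR and CDS shares rise.

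Deep clusters were wider. Their median width was 146 bases (quartiles 120 and 212) against 128 bases (108 and 167) in the rest. The gap was 184.5 against 143 bases in 3′ UTR and 150 against 133 in CDS, and small in introns, at 127 against 122. Clusters of 90 to 99 reads had a median width of 171 bases and those of 100 to 109 reads 160.5. With a threshold of 200 reads the median was 139 bases. Width therefore did not rise with depth across these 3 sets. Deep clusters over 500 bases numbered 18, among them Jph4 (1017 bases), Cbx6 (690 bases) and Tet3 (589 bases) in 3′ UTRs. At the other end, 32 deep clusters (3.32%, 2.36 to 4.65) spanned 86 bases or fewer, against 1.32% (1.24 to 1.41) of the rest. Of these 32, 14 had no annotation, 8 were intronic and 5 antisense, and 11 were exactly 84 bases wide. A circRNA identifier was attached to 142 deep clusters (14.7%, 12.6 to 17.1) and to 12.9% (12.6 to 13.1) of the rest, and within CDS to 25.5% and 26.7%. In 5′ UTR, 5 of 12 deep clusters had one, Mgat4a and Sipa1l1 among them, against 60 of 882 in the rest.

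Clusters without annotation in the table were often in genes of GENCODE M21. Of the 127, 55 (43.3%, 35.0 to 52.0) lay in an exon on the same strand, against 15.3% of those of 10 to 99 reads, and 52 (40.9%) lay between genes, against 62.2%. Protein-coding genes covered 42 (33.1%, against 20.3%), pseudogenes 21 (16.5%, against 5.60%) and lincRNAs 5 (3.94%, against 4.59%). A gene end on the same strand lay within 10 kb upstream of 25 of the 127 (19.7%, 13.7 to 27.45), against 14.1% (13.5 to 14.8), and these intervals overlap. Mitochondrial RNA gave 8 of the 45 mitochondrial clusters as deep, with 5215 reads, and none of 491 clusters on chromosome Y was deep. Annotated small RNA genes overlapped 14 deep clusters (1.45%, against 0.260%) with 24800 reads, 8.78% of the deep reads. Most of these reads were in the clusters of Pkd1 over Gm24589 (17721 reads) and of mt-Nd1 over tRNA genes (4092 reads). The others included Mir28a in an intron of Lpp (646 reads), Mir1198 in Gripap1 (376 reads) and Mir127.

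Deep exonic clusters were found in 546 of the 8110 genes with any exonic cluster, which is 6.73%. Most had a single one: 512 genes had 1, 29 had 2 and 5 had 3 or more. A single cluster of 100 reads, in the 3′ UTR that the gamma-protocadherin genes share, names 25 of these genes, and 515 of the 546 had a deep cluster that names no other gene. In the median gene among the 546, the deepest cluster held 61.3% of the gene's exonic reads, and 52 genes had no other exonic cluster. Genes with several are given next. Ank2, which encodes the membrane adaptor ankyrin B, had 4 with 592 reads in all, of which 1 in 3′ UTR had 153 reads and the 3 in CDS between 100 and 233. Slc1a2, the glial glutamate transporter, had 4 in its 3′ UTR, with 166, 125, 124 and 121 reads. Adcy1, a calcium-stimulated adenylyl cyclase, had 3 in its 3′ UTR, with 164, 122 and 105 reads. Camk2a, the kinase whose promoter drives Cre here, had 139 reads in 3′ UTR and 109 and 100 in CDS. A single cluster held most of the deep reads of Acadvl (5623 and 108 reads), Fbxo32 (3041 and 108) and Tnrc6a (775 and 133). Atrx, a chromatin remodeller, had 348 and 204 reads and Agap2, a GTPase regulator, 286 and 239, all in CDS.

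Some genes had several deep clusters in introns. Deep clusters in introns alone were found in 217 of 6436 genes, and 32 genes had 2 or more. Of all intron clusters, 0.798% were deep. In Bdp1, 2 of 3 such clusters were deep. The 5 genes with the most deep ones are given next. Kcnip4 had 4, of 2112, 350, 108 and 100 reads. Dlg2, a postsynaptic scaffold gene, had 4, between 125 and 142 reads. Nrxn3, a presynaptic adhesion gene, had 3, between 152 and 194 reads, Nrg3, a neuregulin gene, 3, between 138 and 214, and Phactr1, a regulator of actin, 3, between 111 and 223. Clusters of any depth in introns alone numbered from 150 in Kcnip4 to 241 in Nrxn3 among these 5 genes. Of all genes, 21 genes had both a deep exonic and a deep intronic cluster.

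The gene lists are read against the 6.73% of all genes with exonic clusters. Among RNA-binding splicing regulators, 7 of 19 had a deep exonic cluster: Hnrnpf (5730 reads), Ptbp2, a neuronal repressor of exons (780 reads), Hnrnpk (116 reads), Elavl4, Rbfox2, Rbfox3 and Celf1. Among presynaptic and vesicle genes it was 6 of 20, led by Syt4 (2619 reads), Syt1, the calcium sensor of release (220 reads in 2 clusters), and Bsn, a scaffold of the active zone (205 reads in 2). Voltage-gated ion channels had 5 of 20, among them Hcn2, a pacemaker channel gene (132 reads), Cacna1e (102 reads) and Scn1a (102 reads). Of 11 genes of the miRNA machinery, Tnrc6a (908 reads in 2), Tnrc6b (581 reads) and Dicer1 (175 reads) had one. Tnrc6a and Tnrc6b encode the partners through which Argonaute silences, and Dicer1 the enzyme that cuts miRNAs from precursors. Ago2 itself had 5 exonic clusters, the deepest of 45 reads, so none was deep. Glutamate receptors and scaffolds had 4 of 19, the AMPA receptor genes Gria1 (305 reads), Gria3 (194 reads) and Gria2 and the NMDA receptor gene Grin1 (140 reads). Of the 20 genes in that list, 7 had a deep cluster in introns alone, beside 217 of the 6436 genes with any such cluster. These 7 had many such clusters of any depth, from 34 in Grik2 to 193 in Dlg2, and the part of that number was not tested.

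Over 7 lists of cell type markers, 5 of 64 genes with an exonic cluster had a deep one, or 7.81%, near the 6.73% of all genes. Excitatory neuron markers had 2 of 11, Camk2a (348 reads in 3) and Camk2b (140 reads), and astrocyte markers 3 of 12, among them Slc1a2 (536 reads in 4) and Slc4a4 (102 reads). None was deep among 10 striatal, 8 interneuron, 9 oligodendrocyte, 5 microglial and 9 endothelial or mural markers with an exonic cluster. The astrocyte markers Gfap and Aqp4 had their deepest exonic clusters at 40 and 84 reads, and the interneuron markers Gad1 and Gad2 at 35 and 51. The table has no control value, so the part of RNA from cells without Cre was not tested. The ERK pathway had 2 of 18, Pea15a (262 reads) and Rps6ka3 (152 reads). Activity-induced genes had 0 of 11, household genes 1 of 12 (Actb, 122 reads) and ribosomal proteins 1 of 11 (Rps6, 116 reads). With lists of 5 to 20 genes these shares rest on few clusters, and the part of RNA length and abundance in them was not tested.

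Matches to the miR-128 seed were in 265 deep clusters (27.5%, 24.8 to 30.4), against 10.7% of clusters of 10 to 99 reads, a ratio of 2.58 (2.32 to 2.86). A match here is the 6 bases that pair with miRNA bases 2 to 7, as counted by the table's own columns over the whole cluster. The share was 9.46% at 10 to 19 reads, 11.5% at 20 to 49, 16.8% at 50 to 99, 26.1% from 100 to under 200 and 31.5% at 200 or more. It was above the rest in each large region: 31.8% against 11.4% in introns, 27.6% against 7.55% without annotation, and 24.8% against 13.3% in 3′ UTR. miR-27 matches were in 206 deep clusters (21.4% against 9.90%). Both matches were in 150 of the 963 deep clusters and in 2967 of the 69179 others. Of clusters with a miR-128 match, 56.6% of the deep ones and 40.15% of the rest also held a miR-27 match. The matches overlap, so the miR-27 share is not separate from that of miR-128, and miR-27 without miR-128 was not tested. let-7 followed with 6.23% against 2.48%, miR-101 with 9.97% against 4.16% and miR-124 with 13.3% against 5.73%. In 3′ UTR, miR-124 matches were in 22.8% against 9.93%. For miR-29 the share did not go on rising: 11.4% at 50 to 99 reads, 12.9% from 100 to under 200 and 9.96% at 200 or more.

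**Figure D3:**
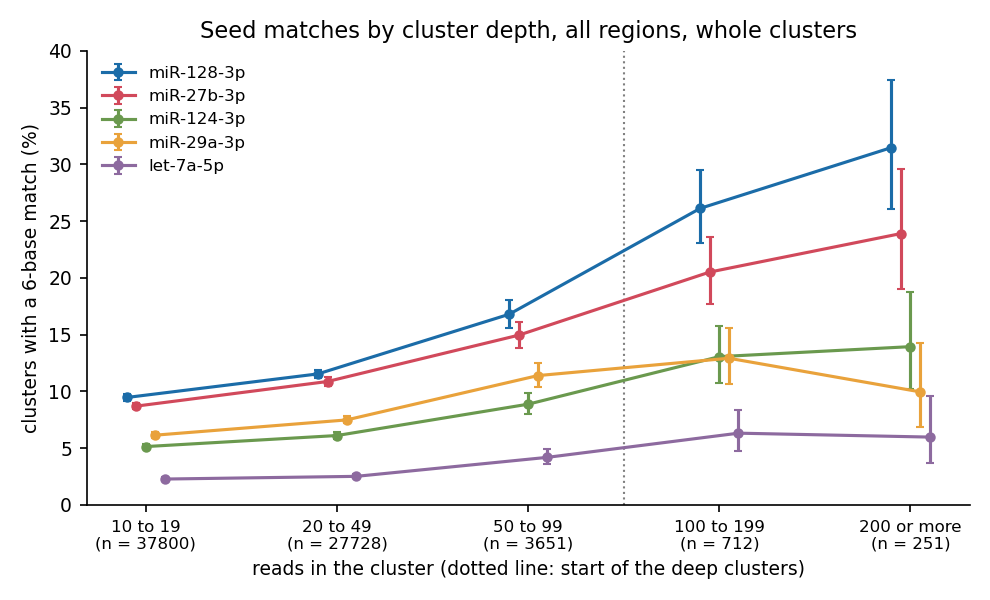
Share of clusters (vertical axis, percent) with at least 1 match to 5 seeds, by reads in the cluster, in all regions, with 95% Wilson intervals. miR-128 rises from 9.46% to 31.5%, and miR-29 is at 12.9% and 9.96% in the deep classes.

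Whole clusters differ in width, and a wider one has more room for a match. Over the 885 distinct columns, the median ratio of deep to other 3′ UTR clusters was 1.32 for whole clusters, and 111 columns were above miR-128. A few repeats also held many matches: a cluster in Ccdc34 held 44 miR-128 matches, one in an intron of 2310022A10Rik held 41, and one in an intron of Panx1 held 21 miR-29 matches. The comparison was therefore made in a central window, the middle base and 50 bases on either side, which can be read where it lies in 1 exon (238 deep and 8535 other 3′ UTR clusters, 187 deep CDS clusters). There miR-128 matches were in 42 deep 3′ UTR clusters (17.6%, 13.3 to 22.99) against 9.41%, a ratio of 1.88 (1.41 to 2.49). miR-124 had no RefSeq sequence here, so it could not be read in the window and is not ranked. Its ratio over whole 3′ UTR clusters was 2.30 (1.81 to 2.91), beside 1.86 (1.49 to 2.32) for miR-128. Of the other brain families read in the window, miR-30a had the highest ratio, 2.24 (1.20 to 4.19, 10 clusters). Then came miR-99a at 2.02 (0.744 to 5.49, 4 clusters), miR-23a at 1.59 (0.964 to 2.63) and miR-9 at 1.59 (0.945 to 2.67). The lowest brain families were miR-19a at 0.585 (0.188 to 1.82), miR-137 at 0.591 (0.190 to 1.84) and miR-125b at 0.821. Families of other tissues spanned a like range: miR-194 at 2.26 (1.21 to 4.22, 10 clusters), miR-451a at 1.79 (2 clusters) and miR-223 at 1.39, and at the low end miR-155 at 0.301 (1 cluster), miR-192 at 0.496 and miR-141 at 0.884. The median ratio was 1.24 over 29 brain families and 1.02 over 13 others. Intervals lay above 1 for 3 of the 42 families read in the window, miR-128, miR-30a and miR-194. The last is not a brain family. With a threshold of 50 reads the miR-30a ratio was 1.18 (0.768 to 1.80) and the miR-194 ratio 1.24 (0.817 to 1.89), while miR-128 kept an interval above 1 at 1.33 (1.11 to 1.58).

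In CDS windows let-7 had a ratio of 3.17 (1.88 to 5.37, 14 clusters, 7.49% against 2.36%), miR-128 one of 2.69 (2.01 to 3.60, 20.9% against 7.75%) and miR-27 one of 2.40 (1.75 to 3.31, 17.6% against 7.34%). In 3′ UTR the ratio of let-7 was 1.09 (0.490 to 2.44), on 6 clusters, and that of miR-27 was 1.38 (0.981 to 1.94), so both intervals held 1. In CDS the interval of miR-29 also lay above 1, at 1.61 (1.015 to 2.56, 17 clusters), and that of no further family did. The median CDS ratio was 1.16 over brain families and 0.727 over the others that had a deep match. It leaves out miR-203 and miR-155, which had 0 deep matches and so no ratio, and would be lower with them.

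**Figure D4:**
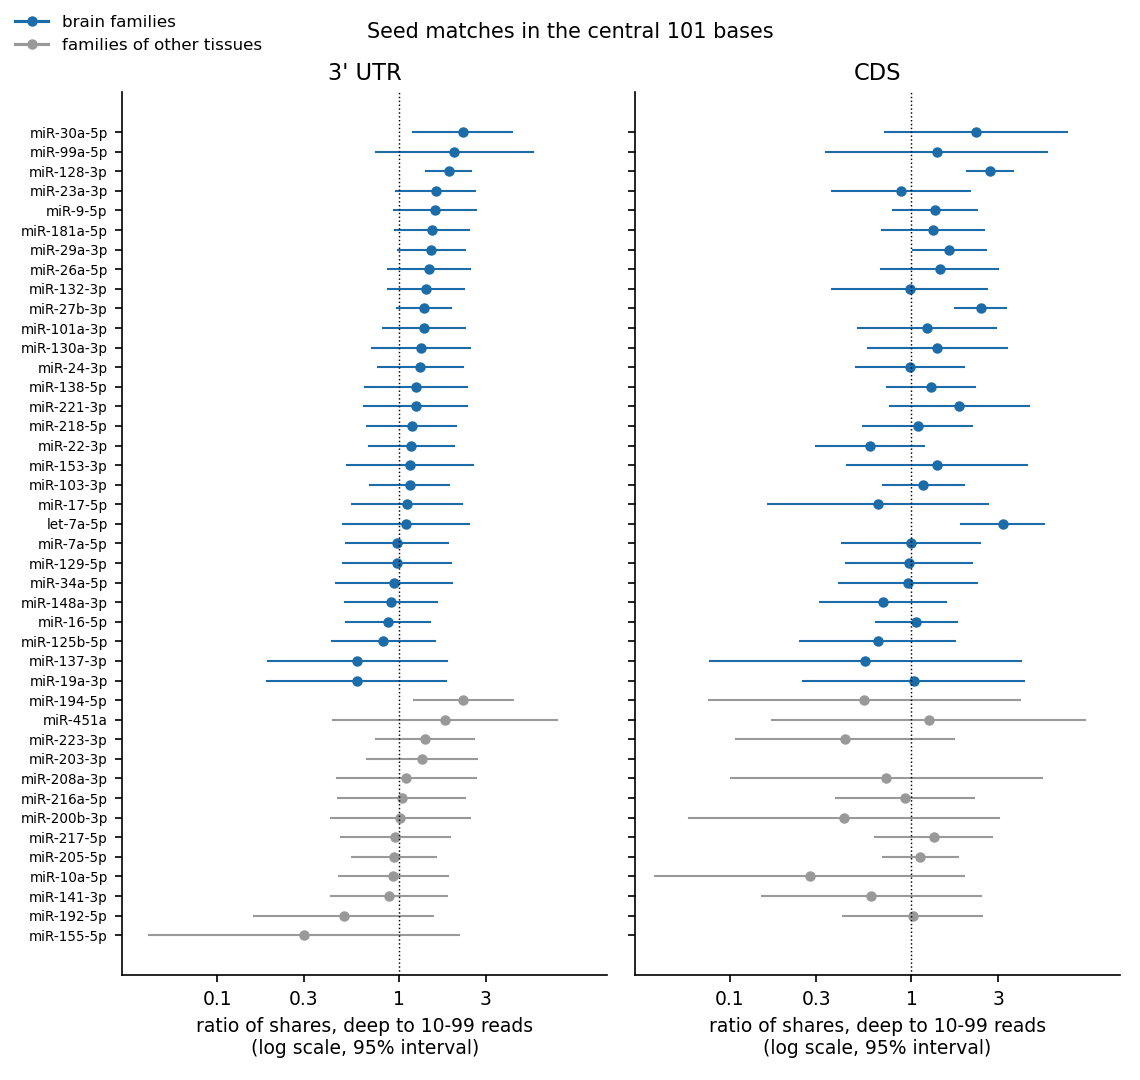
Ratio of the share of deep clusters with a match in the central window to that of clusters of 10 to 99 reads (log axis, 95% intervals), in 3′ UTR and CDS, for 29 brain families (blue) and 13 of other tissues (grey). Families with no deep match in a region have no point, and miR-124, which could not be read in the window, is not shown. miR-128 is at 1.88 and 2.69, and most other intervals cross 1.

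Matches to miR-128 and miR-27 were densest at the centre of the deep clusters. In 315 deep exonic clusters with 100 bases readable on either side of the centre, miR-128 matches came at 2.79 per kb in the 25 bases before the centre and 2.41 per kb in the 25 after, and between 0.508 and 1.27 per kb in the 6 outer bins. In 12101 other clusters the central bins held 1.16 and 1.05 per kb and the outer ones between 0.403 and 0.836. miR-27 matches were at 2.16 and 1.90 per kb about the centre of deep clusters and at 1.04 and 0.912 in the rest. The counts in deep clusters are small, 22 and 19 matches in the central bins for miR-128. Deep miR-29 matches were most frequent in the bin after the centre, at 1.27 per kb on 10 matches. They were at 0.889 per kb both in the bin before the centre and in the outermost bin on the 5′ side. In the rest, miR-29 matches were at 0.714 and 0.707 per kb about the centre and at 0.331 and 0.347 in the outermost bins. With so few deep matches, whether miR-29 has a central peak in deep clusters cannot be read.

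**Figure D5:**
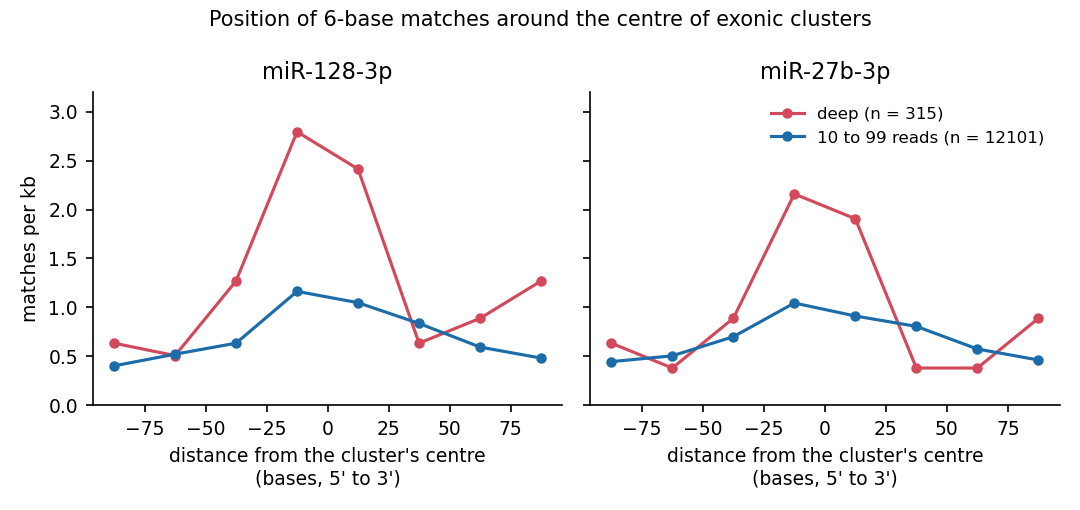
Matches per kb (vertical axis) in bins of 25 bases by distance from the cluster's centre, for miR-128 and miR-27, in deep exonic clusters (red) and those of 10 to 99 reads (blue). Deep clusters reach 2.79 per kb for miR-128 in the bin before the centre, and the rest 1.16.

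Longer pairing differed from the rest in few families. Among exonic windows with a miR-27 match, base 8 was paired too in 42 of 64 deep ones (65.6%, 53.4 to 76.1) against 36.8% (34.2 to 39.4) of the rest. For miR-23a it was 14 of 20 (70.0%, 48.1 to 85.4) against 34.0%, for miR-132 13 of 21 (61.9%, 40.9 to 79.2) against 34.7%, and for miR-9 12 of 27 (44.4%, 27.6 to 62.7) against 28.6%. miR-128 differed less, with 32 of 81 (39.5%, 29.6 to 50.4) against 34.5%, and miR-29 was at 44.7% against 46.4%. A miR-27 match with base 8 paired reads ACTGTGA and so always contains the miR-128 match ACTGTG, and the part of each miRNA cannot be told apart there. The printed sites of Pcdh17 and Dock11 and the unmarked miR-27 match of Mettl3 are of this kind. The share went the other way for miR-34a, with 1 of 13 (7.69%, 1.37 to 33.3) against 40.1% (35.8 to 44.5), and for miR-30a, with 38.5% against 51.6%. Of 31 families with at least 10 deep matches, 20 had a higher and 11 a lower share than the rest, and the intervals were apart for 4, miR-27, miR-23a and miR-132 above and miR-34a below.

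Among 6-base words common in deep clusters, counted without a miRNA list, the miR-128 match came first. They were counted in the central stretch of 51 bases of 581 deep clusters, those where it lay in 1 GENCODE exon. Of these clusters, 241 were in 3′ UTR and 255 in CDS by the deposited annotation, and some of the others were not exonic by it. Of 50 words held by at least 5% of the deep stretches, ACTGTG had the highest ratio to the rest, 2.91. It was in 15.5% of deep and 5.32% of other stretches. The miR-27 match CTGTGA had a ratio of 2.20, with 10.7% and 4.85%. The words TGTGAC with a ratio of 2.26, GACTGT with one of 2.26 and CACTGT with one of 2.24 share most of their letters with these matches, so they are not separate observations. Outside that run of letters, AAGGGC had a ratio of 2.37, GAGACC one of 2.22 and AGGGCT one of 1.92. AAGGGC and AGGGCT also share most of their letters and are not separate observations. GAGACC is complementary to ggucuc, a stretch of miR-128 outside its seed, and whether it pairs there was not tested. The median over the 50 words was 1.18. Words entered by their share in deep stretches, which favours high ratios, so the ranking and this median depend on that filter. ACTGTG was above 5% in the rest as well, and none of the other words named here was. Base composition was close, with 50.1% G and C in deep stretches and 51.1% in the rest.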

How the data were processed

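The deposited table of clusters was used as it stands. Its values are whole-number read counts per cluster, with no normalization named, per the file headers, and its miRNA columns, also deposited by the authors, count seed matches. Reads were aligned with BWA to mm10, per the submitters' processing notes; cluster calling, duplicate removal, multiple alignments and which libraries were pooled: not given in the sources used here. Columns of a single library numbered 0, so no test was made. Shares carry 95% Wilson intervals and ratios of shares 95% log-scale intervals. GENCODE M21 gave exons and transcript sequence, RefSeq the miRNAs (42 of 50 families matched). For all 42, counting the 6-base match gave the deposited value in each of 16556 clusters inside 1 exon. Named were the 10 deepest clusters, the 5 deepest per region, the 10 genes with most deep exonic and 5 with most deep intronic clusters, 3 members per list, families with the highest and lowest 3′ UTR ratios, 8 words of 6 bases, Ago2, Camk2a and Cdr1. Some of these are not reported here. Other names were chosen after their values were seen. Members and lists were chosen with earlier results of these data known. Functions were tested on simulated data. Python 3.11.15, pandas 2.3.3, numpy 2.4.6, scipy 1.17.1 and matplotlib 3.10.9 were used.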

Additional observations from a re-analysis of the deposited data

How the results depend on the processing

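With a threshold of 50 reads, introns held 31.5% of clusters, unannotated clusters 10.4%, 24.6% of genes had a deep exonic cluster and the miR-128 ratio in 3′ UTR was 1.33. At 200 reads the median width was 139 bases and 1.69% of genes had one. Counting 3′ UTR alone gave 5.43% of genes. Counting every overlap gave 36.1% for CDS and 53.6% for introns, against 20.4% and 61.6% of clusters of 10 to 99 reads. Among clusters of 100 to 150 bases, a choice made after seeing the data, 3′ UTR held 17.8% and introns 37.2%. Both lay outside the intervals for all deep clusters, 23.3 to 28.8 and 24.4 to 30.0. Shares in clusters of 10 to 99 reads at this width are not given, so the difference at equal width cannot be read here. Leaving out small RNA and mitochondrial clusters, and, chosen after seeing the data, the 10 deepest clusters or all but the deepest of each look-alike group, moved no share, width or circRNA value beyond its interval. With look-alikes counted once, the miR-128 ratio was 1.88. The miR-128 interval lay above 1 in all 8 alternatives. That of miR-30a held 1 at 50 reads (1.18), at 200 reads (2.70) and in the central 51 bases (1.41), and that of miR-194 at 50 reads (1.24) and in the central 51 bases (2.42). miR-99a fell to 0.669 where no other region was named, and miR-9 to 0.916 at 200 reads. No paired analysis was possible because the table separates no libraries, and for the same reason no replicate could be left out. Depth limits the rarer families: intervals on 1 to 15 deep clusters span several-fold.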
